A study of Mus musculus with 18 samples.

Results

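The 9 miRNAs described here are the 3p arms of let-7 hairpins, mmu-let-7a-1-3p, mmu-let-7a-2-3p, mmu-let-7b-3p, mmu-let-7c-1-3p, mmu-let-7c-2-3p, mmu-let-7d-3p, mmu-let-7e-3p, mmu-let-7f-1-3p and mmu-let-7f-2-3p, chosen by name from 1900 mature miRNA names in a small RNA sequencing table of mouse NIH 3T3 fibroblasts. The study asked how transcripts respond to substrate rigidity once the LINC complex is broken, in which SUN proteins of the inner nuclear envelope hold nesprins of the outer one and so tie the nucleus to the cytoskeleton. The table covered 18 libraries, 3 in each of 6 groups. These were SUN1L cells on a stiff gel of 308 kPa, KDEL cells on the stiff gel with 10 µM blebbistatin (an inhibitor of non-muscle myosin II), KDEL cells on the stiff gel with 25 µM Y27632 (a small-molecule inhibitor, Y27 below), KDEL cells on the stiff gel without inhibitor, SUN1L cells on a soft gel of 1 kPa, and KDEL cells on the soft gel. SUN1L cells are NIH 3T3 TetON cells transduced with a retrovirus for an inducible, HA-tagged lumenal domain of SUN1, a dominant-negative construct that disrupts the LINC complex. KDEL cells are the same TetON cells with GFP in its place, sent to the endoplasmic reticulum. All 6 groups, controls included, received 1 µg/ml doxycycline for 48 h, and no library of uninduced cells was analysed here. The transduced cells were selected with puromycin, and the KDEL line alone was also sorted on its fluorescence, so that construct and selection of the line cannot be told apart.

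A miRNA gene is transcribed as a long precursor from which the enzymes Drosha and Dicer cut a hairpin and then a short duplex of a 5p and a 3p strand. An Argonaute protein keeps one strand, the guide, and the other, the passenger, is usually degraded, so that the ratio of passenger to guide depends on the hairpin and on the stability of each strand. In the let-7 family the guide is the 5p arm, a repressor of growth genes that is abundant in differentiated cells, and the 3p arm is the passenger. Because both arms of a hairpin come from 1 precursor and are read in the same library, their ratio does not move with the scaling of that library.

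The mature sequences of the passenger arms follow, 5′ to 3′, as given by RefSeq for mouse build GRCm38.p6. All 9 members matched an entry at the position in the deposited table. Capitals mark the seed, bases 2 to 8, which pairs with target transcripts.
let-7a-1-3p: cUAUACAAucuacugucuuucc
let-7c-2-3p: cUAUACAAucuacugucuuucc
let-7f-1-3p: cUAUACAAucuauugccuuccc
let-7b-3p: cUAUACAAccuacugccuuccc
let-7f-2-3p: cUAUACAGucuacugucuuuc
let-7d-3p: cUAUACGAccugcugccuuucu
let-7e-3p: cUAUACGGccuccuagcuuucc
let-7c-1-3p: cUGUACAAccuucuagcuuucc
let-7a-2-3p: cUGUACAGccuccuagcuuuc

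These sequences are shown because their likeness decides which members can be read apart. let-7a-1-3p and let-7c-2-3p are identical, so the 9 names stand for 8 sequences, and their reads could not be assigned to one hairpin. Their deposited values stood in a ratio of 1.05 to 1.17 in every library, and they are counted below as 2 names with 1 profile. The seed UAUACAA was shared by 4 members (let-7a-1-3p, let-7b-3p, let-7c-2-3p and let-7f-1-3p) and by mmu-miR-98-3p, while the other 5 members each had a seed that no other mouse mature miRNA in the RefSeq table carried. Counting from the 5′ end and starting from let-7a-1-3p, let-7f-2-3p differed by A8G alone over 21 bases, let-7b-3p by U9C, U16C and U20C, and let-7d-3p by A7G, U9C, A12G, U16C and C22U. The guide arms are far more alike. The 2 guides whose passengers are central below are shown for comparison, again with the seed in capitals.
let-7b-5p: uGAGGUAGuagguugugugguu
let-7d-5p: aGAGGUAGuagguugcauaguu

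The hairpins lie in 6 places in GRCm38. let-7d, let-7f-1 and let-7a-1 form a cluster on the minus strand of chromosome 13, with let-7d-3p at chr13:48536024-48536045, let-7f-1-3p at chr13:48537833-48537854 and let-7a-1-3p at chr13:48538188-48538209. On chromosome 15, plus strand, let-7c-2-3p (chr15:85706664-85706685) lay 715 bp before let-7b-3p (chr15:85707379-85707400). let-7e-3p (chr17:17830411-17830432) is a neighbour of miR-99b and miR-125a, let-7a-2-3p (chr9:41536777-41536797) of miR-100, let-7c-1-3p (chr16:77599717-77599738) of miR-99a, and let-7f-2-3p (chrX:151912403-151912423) of miR-98, all on the plus strand. The 5p arms of let-7a, let-7c and let-7f are each made by 2 hairpins, so that only let-7b, let-7d and let-7e pair 1 passenger with 1 guide.

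Depth was worked out from the step between low deposited values. In units of 1000000 reads assigned to miRNAs it was 2.77 to 8.49 in 17 libraries and 1.36 in blebbistatin replicate 3. That library stood apart. The median value of the 481 tested miRNAs was 15.5 there, against 160 and 162 in the other blebbistatin libraries, and its number in the labels (34) was outside the run of 37 to 54 that held the others. All 9 members had their lowest value in it. Each test is therefore given with 18 libraries and with the 17 left without it, in fits with equal weight for each library. Alternative fits, array weights among them, are given in the last section. The same median was 39.1 to 87.2 in SUN1L cells on the soft gel and 91.5 to 212 in the other groups apart from that library, so that members are read against all miRNAs. The 6 fibroblast miRNAs checked were above the floor of 1 in every library. Of 17 miRNAs of other cell types 15 were in the table, 6 were above the floor in every library (miR-206-3p of muscle at 319 to 1373 was the highest) and 2 of embryonic stem cells, miR-290a-3p and miR-302a-3p, were at the floor in all 18. Their sum was 1001 to 1290 in SUN1L cells on the soft gel, against 1293 to 1414 in KDEL cells on the soft gel and 1526 to 2138 in the stiff gel groups, and its part in the results was not tested. In bulk libraries fewer cells of a type and less RNA per cell cannot be told apart.

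**Figure D1:**
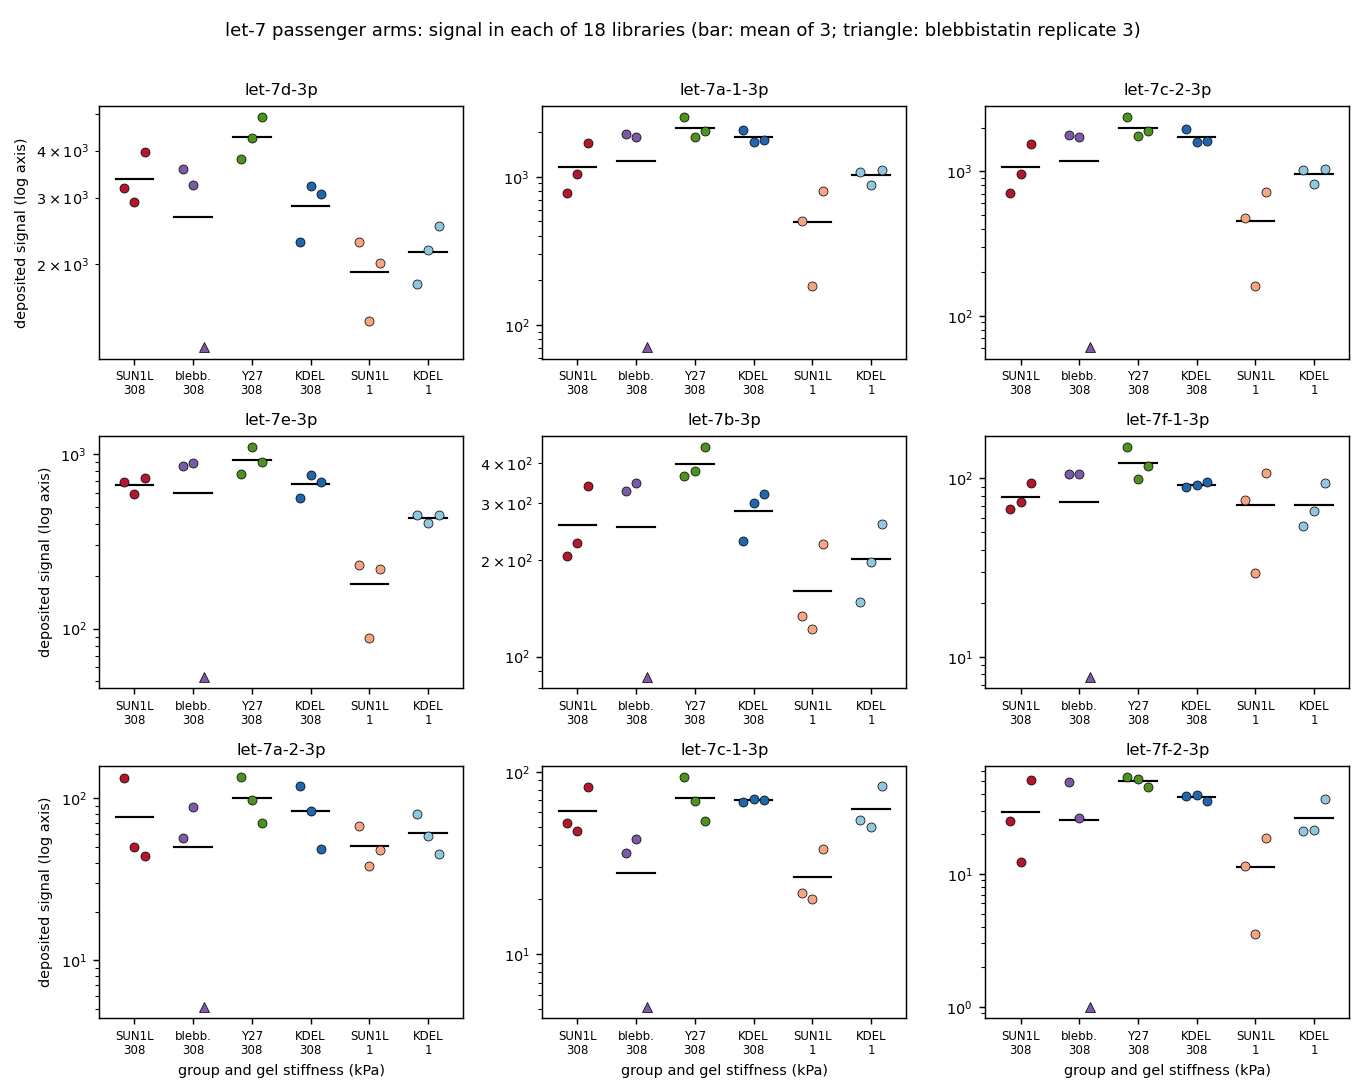
Deposited signal (log axis) of each passenger arm in every library, by group and gel stiffness in kPa, with a bar at the mean of 3 libraries and a triangle for blebbistatin replicate 3. That library is the lowest of 18 in all 9 panels, and SUN1L cells on the soft gel lie under KDEL cells on the soft gel without overlap in 5 of them.

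The passenger arms spanned a wide range of levels. On the deposited scale let-7d-3p was the highest, with a mean of 2878 over 18 libraries and rank 101 of the 481 tested miRNAs. let-7a-1-3p (1324), let-7c-2-3p (1235), let-7e-3p (578) and let-7b-3p (259) came next, and let-7f-1-3p (84.7), let-7a-2-3p (70.6), let-7c-1-3p (53.4) and let-7f-2-3p (30.1) were low. All 9 passed the filter of at least 10 in at least 3 libraries. Depth limits the low ones. let-7f-2-3p rested on 3 to 74 reads in the 17 libraries and was at the floor in blebbistatin replicate 3, whereas let-7d-3p rested on 1187 to 5348 reads in the 17.

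Relative to the guide the order was different and the spread larger. let-7d-3p averaged 20.99% of let-7d-5p over 18 libraries, with 77 of 167 tested hairpins having a lower 3p to 5p ratio, whereas let-7a-1-3p was at 2.72% of its guide, let-7e-3p at 2.29%, let-7c-2-3p at 2.15% and let-7b-3p at 1.36%. The remaining passengers were under 1% of their guides, at 0.168% for let-7a-2-3p, 0.0977% for let-7c-1-3p, 0.0588% for let-7f-1-3p and 0.0198% for let-7f-2-3p. let-7d is thus the hairpin of this set whose passenger arm accumulated most, and it is also the hairpin on which the comparisons below turn.

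The first comparison asked what LINC disruption did on the soft gel. let-7d-3p had 2284, 1407 and 2009 in SUN1L cells, against 1774, 2174 and 2518 in KDEL cells. The groups overlapped. Its guide let-7d-5p had 4271, 2676 and 4830 in SUN1L cells, against 8203, 9068 and 16382 in KDEL cells, with no overlap. let-7d-3p thus stood at 53.5%, 52.6% and 41.6% of its guide in SUN1L cells, against 21.6%, 24.0% and 15.4% in KDEL cells, a mean of 49.2 ± 6.62% against 20.3 ± 4.45% (SD, n = 3 each). Every SUN1L library was above every KDEL library, and 44.3% of the 167 tested hairpins had no overlap in this comparison.

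let-7b, from another chromosome, had the same direction. let-7b-3p had 134, 122 and 224 in SUN1L cells, against 148, 197 and 258 in KDEL cells, which overlap, and let-7b-5p had 8896, 3129 and 4746 in SUN1L cells, against 16797, 14764 and 22899 in KDEL cells, which do not. Its passenger to guide ratio was 1.503%, 3.90% and 4.71% in SUN1L cells, against 0.883%, 1.33% and 1.13% in KDEL cells. SUN1L replicate 1 lay close to the highest KDEL library.

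With 17 libraries the log2 change of the 3p to 5p ratio was 1.29 ± 0.22 (SE) for let-7d and 1.46 ± 0.34 for let-7b, with adjusted p of 0.000415 and 0.00362 over 167 hairpins (limma, Benjamini-Hochberg). Both calls held when any 1 of the 17 libraries was also left out. With 18 libraries the same changes were not called (adjusted p = 0.255 for let-7d and 0.205 for let-7b) at SEs of 0.42 and 0.40, since all groups share 1 estimate of the spread and blebbistatin replicate 3 enters it. Of the 167 hairpins 36.5% were called in this comparison with 17 libraries (33 higher, 28 lower) and 0.0% with 18, where limma gave 28 at an unadjusted p under 0.05, let-7d and let-7b among them. Among the members 3 of 9 were called with 17 libraries, a share near that background. Ranked by change, let-7b was 20th and let-7d 25th from the top.

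The other member called by ratio was let-7f-2, with a change of -1.37 ± 0.43 and adjusted p = 0.0190 with 17 libraries. let-7f-2-3p had 11.4, 3.56 and 18.6 in SUN1L cells, against 20.9, 21.3 and 37.0 in KDEL cells. The call was lost when SUN1L replicate 2, the library with 3 reads, KDEL replicate 1 or KDEL replicate 3 on the soft gel was also left out (adjusted p up to 0.122). let-7e, the third hairpin with its own guide, was not called by ratio. let-7e-3p was at 1.94%, 1.80% and 2.32% of its guide in SUN1L cells, against 3.06%, 2.24% and 1.63% in KDEL cells, a log2 change of -0.15 ± 0.28 (adjusted p = 0.729). Passenger and guide of let-7e were both lower, by -1.38 and -1.23 on the log2 scale.

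**Figure D2:**
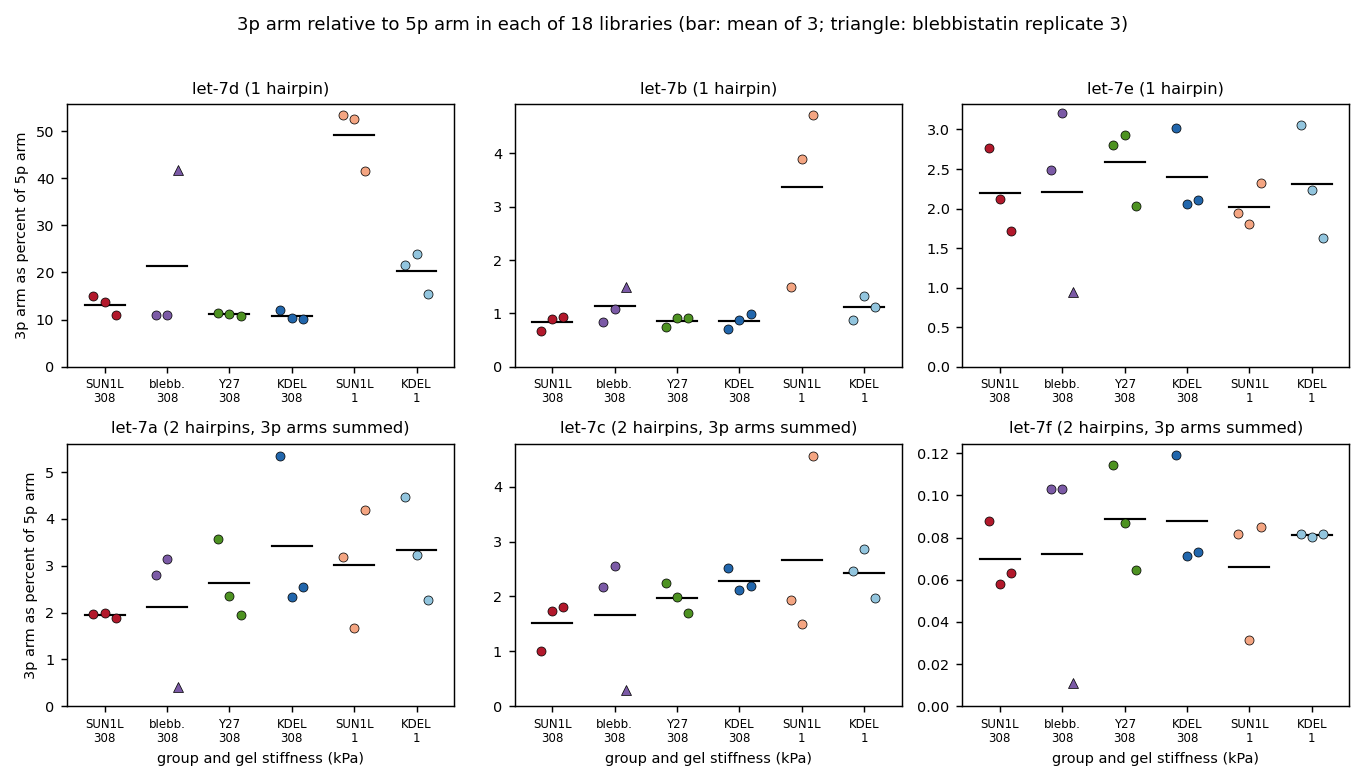
Passenger arm as a percent of its guide arm in every library, by group and gel stiffness in kPa, with a bar at the mean of 3 libraries and a triangle for blebbistatin replicate 3. In the upper row each guide has 1 hairpin, and in the lower row the passengers of 2 hairpins are summed over their shared guide. let-7d stands at 41.6% to 53.5% in SUN1L cells on the soft gel and in blebbistatin replicate 3 at 41.8%, and at most at 24.0% elsewhere.

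As levels rather than ratios, 5 of the 9 passengers fell in SUN1L cells on the soft gel with 17 libraries. On the log2 scale of deposited values the changes were -1.27 ± 0.40 for let-7a-1-3p, -1.32 ± 0.41 for let-7c-2-3p (the same sequence), -1.23 ± 0.33 for let-7c-1-3p, -1.38 ± 0.31 for let-7e-3p and -1.35 ± 0.50 for let-7f-2-3p, with adjusted p of 0.0023 to 0.0354 over 481 miRNAs. let-7a-1-3p, for example, had 505, 184 and 798 in SUN1L cells, against 1071, 886 and 1107 in KDEL cells, with no overlap. let-7e-3p had 230, 88.9 and 220 in SUN1L cells, against 446, 404 and 445 in KDEL cells. The 5 called members were also those whose groups did not overlap, against 50.3% of all tested miRNAs without overlap. The 4 members not called had changes of -0.35 (let-7b-3p), -0.20 (let-7d-3p), -0.15 (let-7f-1-3p) and -0.26 (let-7a-2-3p). The call was lost for let-7a-1-3p, let-7c-2-3p and let-7f-2-3p when SUN1L replicate 2 was also left out, for let-7a-1-3p and let-7f-2-3p without KDEL replicate 3, and for let-7f-2-3p without KDEL replicate 1.

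These falls are not particular to the passengers. The median of all 481 tested miRNAs was -0.68, and 43.9% were called with 17 libraries (179 lower, 32 higher), close to the 5 of 9. With 18 libraries 2.7% were called, all higher, and limma called 0 of 9 members, none at an unadjusted p under 0.05. Under rescaling to the median of ratios with 17 libraries all 5 kept a negative sign, of which let-7e-3p alone was called (-0.67), while let-7d-3p turned to a called rise of 0.52. Under quantile scaling let-7c-1-3p (-0.74) and let-7d-3p (0.62) were called.

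On the stiff gel no passenger was called between SUN1L and KDEL cells in the fits of 17 and 18 libraries with equal weights. let-7d-3p had 3186, 2919 and 3956 in SUN1L cells, against 2285, 3214 and 3059 in KDEL cells, and stood at 14.9%, 13.7% and 10.9% of its guide in SUN1L cells, against 12.03%, 10.3% and 10.2% in KDEL cells. The ratio changed by 0.28 ± 0.22 on the log2 scale with 17 libraries (adjusted p = 0.801), and that of let-7b by -0.04 ± 0.34. limma called 0 of 9 members by level and by ratio with either set of libraries, and none had an unadjusted p under 0.05. The 2 with the widest gap were the identical let-7a-1-3p and let-7c-2-3p. let-7a-1-3p had 777, 1037 and 1675 in SUN1L cells, against 2055, 1713 and 1771 in KDEL cells, which do not overlap (-0.74 ± 0.40, adjusted p = 0.554). Its ratio to the guide was 1.78% to 2.01% in SUN1L cells, against 2.37% to 5.35% in KDEL cells. With 18 libraries the ratio changed by -0.76 ± 0.65 for let-7a-1 and -0.63 ± 0.65 for let-7c-2, both without overlap (adjusted p = 0.976). Over all miRNAs 3.12% were called by level with 18 libraries and 3.74% with 17, and 0.0% of hairpins by ratio in both. Levels of 19.1% of all tested miRNAs and ratios of 14.4% of the hairpins did not overlap between the lines on the stiff gel.

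The second comparison was of substrate rigidity within a line. In SUN1L cells let-7d-3p had 3186, 2919 and 3956 on the stiff gel, against 2284, 1407 and 2009 on the soft gel, with no overlap. Its guide differed more, with 21317, 21278 and 36255 on the stiff gel, against 4271, 2676 and 4830 on the soft gel. The passenger therefore fell relative to its guide, to 13.2 ± 2.07% on the stiff gel, against 49.2 ± 6.62% on the soft gel (SD, n = 3 each). let-7b-3p stood at 0.669%, 0.897% and 0.941% of its guide on the stiff gel, against 1.503%, 3.90% and 4.71% on the soft gel.

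These were the member calls of the fit of 18 libraries with equal weights. Array weights, in the last section, also called members with no library left out. With 18 libraries the ratio changed by -1.90 ± 0.42 for let-7d and -1.87 ± 0.40 for let-7b, both at adjusted p = 0.0147, and 13.2% of the 167 hairpins were called. With 17 libraries adjusted p was 2.57e-06 for let-7d and 0.000168 for let-7b, let-7c-1 was called as well (-0.90 ± 0.33, adjusted p = 0.0269), and 56.3% of hairpins were called (51 higher, 43 lower). In the fit of 18, leaving out SUN1L replicate 3 on the stiff gel or SUN1L replicate 2 on the soft gel ended both calls, and leaving out SUN1L replicate 1 on the stiff gel or SUN1L replicate 3 on the soft gel ended that of let-7b (adjusted p of 0.0523 to 0.0753). In the fit of 17 both calls held without any further library, while that of let-7c-1 was lost without SUN1L replicates 1 or 2 on the stiff gel or 2 or 3 on the soft gel. let-7a-2 had a change of -1.45 ± 0.61 that missed the threshold (adjusted p = 0.0505).

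The ratio of let-7e was again not called, at a change of 0.10 ± 0.28 (adjusted p = 0.793), and its passenger had the widest rise in level of the 9. let-7e-3p had 691, 588 and 725 on the stiff gel, against 230, 88.9 and 220 on the soft gel, a 4.01-fold higher value with a log2 change of 2.00 ± 0.31 and adjusted p = 3.38e-05 with 17 libraries. In all 7 passengers rose with 17 libraries on the deposited scale, of which 2 kept a positive sign under both of the rescalings tried. The other changes were 1.39 for let-7a-1-3p, 1.41 for let-7c-2-3p, 1.34 for let-7f-2-3p, 1.18 for let-7c-1-3p, 0.84 for let-7d-3p and 0.70 for let-7b-3p, with adjusted p of 0.00455 to 0.0485, while let-7f-1-3p (0.31) and let-7a-2-3p (0.42) were not called. The call of let-7b-3p was lost in 12 of 17 fits that left out 1 more library (adjusted p up to 0.216), and that of let-7f-2-3p without SUN1L replicates 1 or 3 on the stiff gel or 2 on the soft gel.

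This rise was common among the tested miRNAs. Their median log2 change was 1.34, and 69.9% were called with 17 libraries (322 higher, 14 lower) against 4.16% with 18, where limma called 0 of 9 members and let-7e-3p alone had an unadjusted p under 0.05. Relative to that median let-7e-3p, let-7a-1-3p and let-7c-2-3p were above, let-7f-2-3p was at it, and let-7c-1-3p, let-7d-3p, let-7b-3p, let-7f-1-3p and let-7a-2-3p were below. With 17 libraries rescaled to the median of ratios, let-7e-3p was still called higher (0.67), whereas let-7d-3p (-0.51) and let-7f-1-3p (-1.02) were called lower. Under quantile scaling let-7b-3p (-0.88), let-7d-3p (-0.54) and let-7f-1-3p (-0.91) were called lower. The rises of let-7e-3p and let-7f-2-3p kept their sign under both scalings, and those of the other 5 did not under at least 1.

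**Figure D3:**
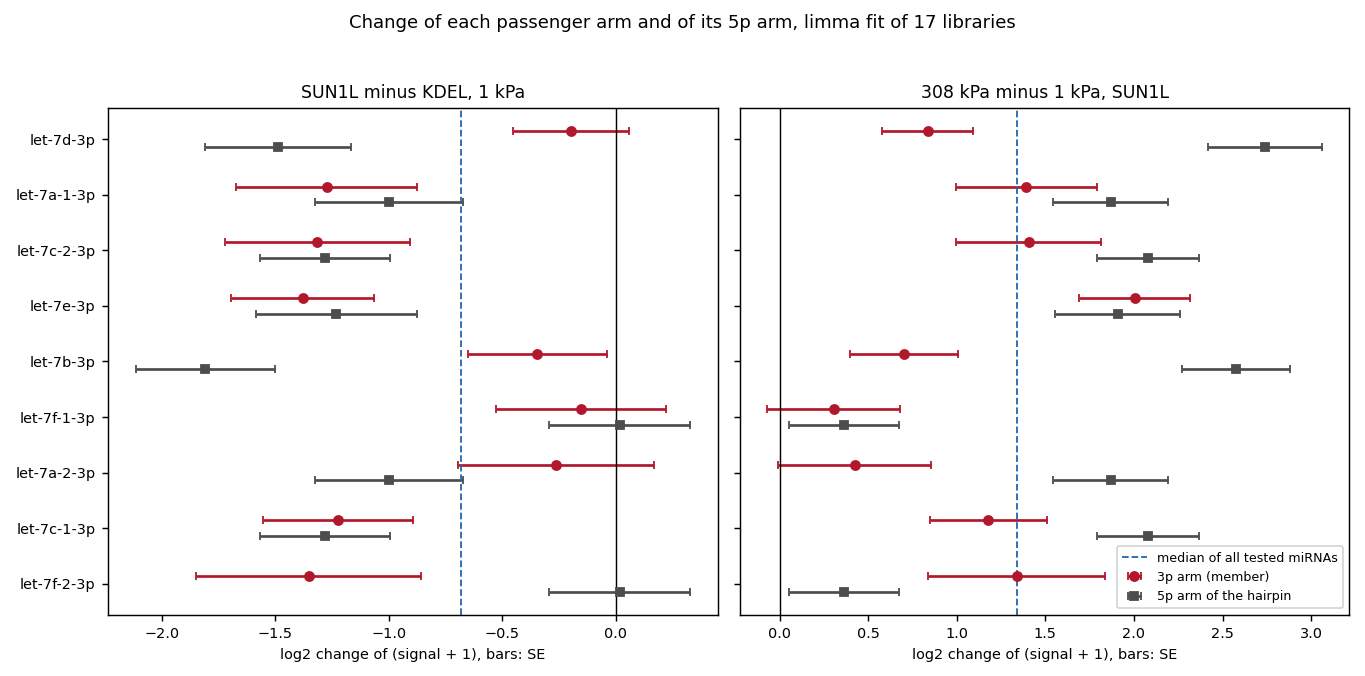
Log2 change of each passenger arm (circles) and of the guide of its hairpin (squares) with the SE, in limma fits of 17 libraries, for SUN1L minus KDEL cells on the soft gel (left) and for stiff minus soft gel in SUN1L cells (right). The dashed line marks the median of all tested miRNAs, -0.68 on the left and 1.34 on the right. let-7d and let-7b show a wide gap between passenger and guide in both panels, and for let-7e the SE bars overlap. These are changes of deposited values, and under rescaling the changes of let-7d-3p and let-7b-3p turn round in both panels.

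In KDEL cells the ratio of let-7d was the 1 member result called for rigidity in the fits of 17 and 18 libraries with equal weights. let-7d-3p had 2285, 3214 and 3059 on the stiff gel, against 1774, 2174 and 2518 on the soft gel, and 10.8 ± 1.04% of its guide on the stiff gel, against 20.3 ± 4.45% on the soft gel (SD, n = 3 each), with no overlap of the ratios. The log2 change of the ratio was -0.89 ± 0.22, with adjusted p = 0.0446 in 17 libraries and 0.809 in 18. That call was lost in 13 of 17 fits that left out 1 more library, so it is near the threshold. Of the hairpins 1.8% were called with 17 libraries (let-7d is 1 of 3) and 0.0% with 18. The ratios of 38.3% of the hairpins did not overlap between the gels. By level no member was called in either fit, against 7.07% and 0.0% of all miRNAs, although all 9 changes were above 0 (4 of 9 with median-of-ratios and 3 of 9 with quantile scaling of 17 libraries). Their median, 0.51, stood beside 0.54 for all miRNAs. By level limma gave 1 member an unadjusted p under 0.05 with 17 libraries and 0 with 18. let-7a-1-3p had 2055, 1713 and 1771 on the stiff gel, against 1071, 886 and 1107 on the soft gel, which do not overlap. Of all tested miRNAs 42.8% did not overlap in this comparison.

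Whether rigidity acted differently in the 2 lines was tested as an interaction. The ratio of let-7d fell by 1.01 ± 0.31 more on the log2 scale in SUN1L than in KDEL cells, and that of let-7b by 1.50 ± 0.49 more, each with adjusted p = 0.0669 with 17 libraries and neither past the threshold. In the 12 untreated libraries alone adjusted p was 0.137 for both, and with a further term for the 3 runs of library numbers in the labels, each of which holds 1 library of every untreated group, both were called (adjusted p = 0.0435 for let-7d and 0.0363 for let-7b). The share of all hairpins called with that term is not given here, and what the runs stand for is not given in the labels. Over 45 alternative fits the interaction of the ratio was called in 4 for let-7b and in 2 for let-7d, so it depends on the fit chosen. With 18 libraries adjusted p of the ratio was 0.869 or above for all members. By level the widest interaction was that of let-7e-3p, 1.38 ± 0.45 (adjusted p = 0.0611 with 17 libraries). Without that term limma called 0 of 9 members in the fits of 17 and of 18 libraries, with 2 at an unadjusted p under 0.05 in each fit of 17 libraries, 1 in the ratio fit of 18 and 0 in the level fit of 18. Of all miRNAs 0.208% were called by level in both fits, and of the hairpins 3.59% with 17 libraries and 0.0% with 18.

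**Figure D4:**
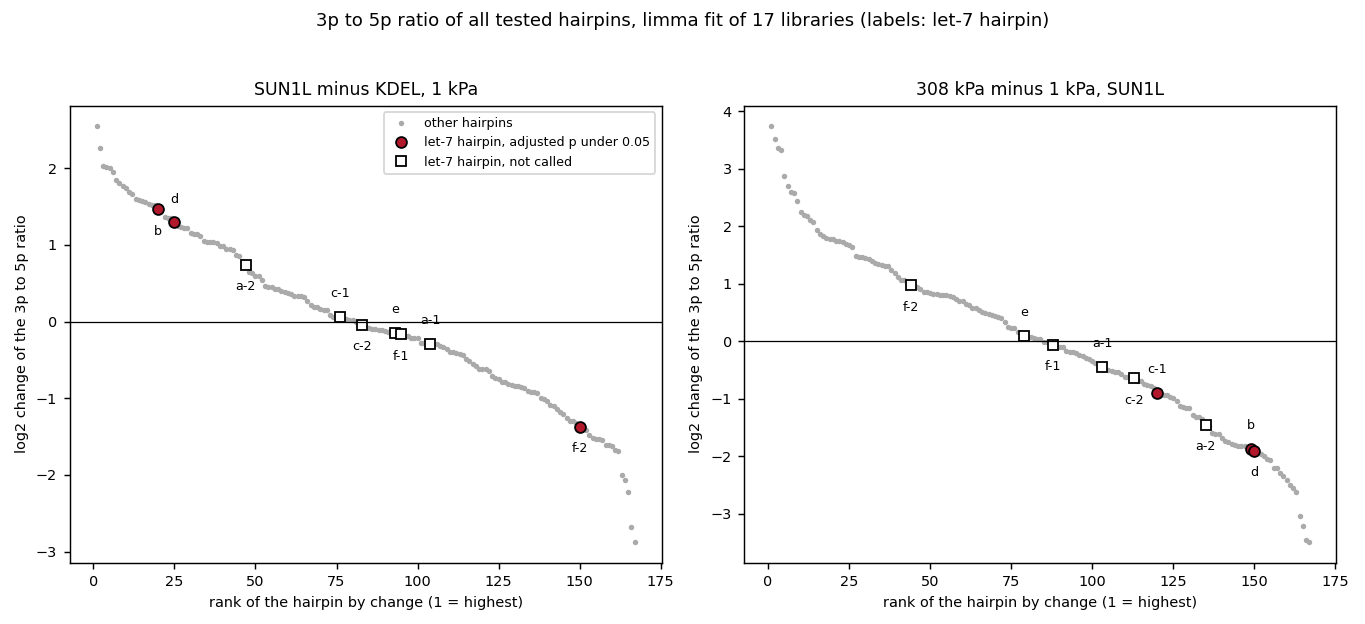
Log2 change of the 3p to 5p ratio of all 167 tested hairpins in order of the change, in limma fits of 17 libraries, for SUN1L minus KDEL cells on the soft gel (left) and stiff minus soft gel in SUN1L cells (right). Filled circles are let-7 hairpins that were called and open squares those that were not. let-7b and let-7d are at ranks 20 and 25 on the left and 149 and 150 on the right, with other hairpins beyond them on both sides.

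The third comparison was of myosin inhibition on the stiff gel. With blebbistatin let-7d-3p had 3565, 3237 and 1202, against 2285, 3214 and 3059 in untreated KDEL cells, and stood at 10.9%, 11.1% and 41.8% of its guide with blebbistatin, against 12.03%, 10.3% and 10.2% in untreated KDEL cells. The ratio of replicates 1 and 2 lay inside the range of the controls, and that of replicate 3 was at the level of SUN1L cells on the soft gel. Blebbistatin replicate 3 and the SUN1L libraries on the soft gel also had the lowest median values of the tested miRNAs. Whether the let-7d ratio follows that median was not tested. Blebbistatin replicate 3 had let-7b-3p at 1.497% of its guide, the highest of the 3 blebbistatin libraries, while the other 7 hairpins had their lowest ratio of all 18 libraries there. let-7a-1-3p was at 0.389% of its guide in it, against 2.89% and 3.19% in the other blebbistatin libraries. let-7c-1-3p had 36.0, 42.9 and 5.16 with blebbistatin, against 68.3, 70.9 and 70.5 in controls, with no overlap (-1.72 ± 0.59 with 18 libraries, adjusted p = 0.348, and -0.82 ± 0.37 with 17, adjusted p = 0.976). Of all tested miRNAs 10.8% did not overlap in this comparison.

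With Y27 all 9 passengers had a change above 0 on the deposited scale (3 of 9 after median-of-ratios scaling of 17 libraries). None was called in the fits of 17 and 18 libraries with equal weights. let-7d-3p had 3800, 4313 and 4899 with Y27, against 2285, 3214 and 3059 in controls, and let-7b-3p had 365, 379 and 448 with Y27, against 228, 300.3 and 321 in controls, both without overlap. Levels did not overlap for 5 of 9 members, against 33.3% of all tested miRNAs. The changes were 0.61 ± 0.26 for let-7d-3p and 0.50 ± 0.31 for let-7b-3p (adjusted p = 0.329 and 0.402 with 17 libraries), beside a median of 0.43 over all miRNAs. The ratio to the guide was 11.1 ± 0.259% with Y27 and 10.8 ± 1.04% in controls for let-7d (SD, n = 3 each). With either inhibitor limma called 0 of 9 members by level or by ratio, with at most 1 at an unadjusted p under 0.05, and 0.0% of all miRNAs and 0.0% of hairpins in both fits.

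Within 1 cluster the ratios of members to each other differed between groups. let-7d, let-7f-1 and let-7a-1 lie within 2164 bp, yet let-7f-1-3p stood at 0.150, 0.161 and 0.135 of let-7a-1-3p in SUN1L cells on the soft gel, against 0.0508, 0.0744 and 0.0848 in KDEL cells on the soft gel. The groups do not overlap, and an exact two-sided permutation test of 3 against 3 libraries cannot give a p under 0.1. The range in the stiff gel libraries other than blebbistatin replicate 3 was 0.0438 to 0.0864. let-7d-3p stood at 4.52, 7.66 and 2.52 times let-7a-1-3p in SUN1L cells on the soft gel, against 1.66, 2.45 and 2.27 times in KDEL cells. Part of what is read as let-7a-1-3p can come from let-7c-2 on chromosome 15. On that chromosome let-7b-3p stood at 0.280, 0.757 and 0.309 of let-7c-2-3p in SUN1L cells on the soft gel, against 0.146, 0.240 and 0.249 in KDEL cells, also without overlap. By level 50.3% of all tested miRNAs did not overlap in this comparison, and the share over other pairs of miRNAs was not worked out.

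For the hairpins that share a guide, the summed passengers overlapped between the lines on the soft gel. The let-7a passengers together were at 3.02 ± 1.27% of let-7a-5p in SUN1L cells on the soft gel, against 3.33 ± 1.10% in KDEL cells. The sums for let-7a and let-7c share reads, since let-7a-1-3p and let-7c-2-3p are identical. With that sequence counted once, the let-7a and let-7c passengers were at 1.57 ± 0.743% of the sum of both guides in SUN1L cells, against 1.52 ± 0.320% in controls. Those of let-7c alone were at 2.66 ± 1.66% in SUN1L cells, against 2.44 ± 0.445% in controls, and those of let-7f at 0.0661 ± 0.0301% in SUN1L cells, against 0.0811 ± 0.000702% in KDEL controls (SD, n = 3 each). let-7f-5p was also the guide with the least change on the soft gel, 0.02 ± 0.31 on the log2 scale, so that the change of let-7f-2 in ratio is close to that of let-7f-2-3p in level. let-7f-5p stood at 6.11, 8.12 and 7.55 times let-7a-5p in SUN1L cells on the soft gel, against 3.74, 3.84 and 3.28 times in KDEL cells. These guides parted in the same direction as the passengers let-7f-1-3p and let-7a-1-3p. Each of these guides is also made by a hairpin outside the cluster. For let-7d against let-7a-1 and let-7b against let-7c-2, passenger ratios were higher and guide ratios lower in SUN1L than in KDEL cells on the soft gel. let-7d-5p stood at 0.2098 to 0.2512 of let-7a-5p in SUN1L cells there, against 0.3257 to 0.3409 in KDEL cells. let-7b-5p stood at 0.2755 to 0.3719 of let-7c-5p in SUN1L cells there, against 0.4186 to 0.5201 in KDEL cells.

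Counts over related groups of miRNAs put these changes in context. With 17 libraries limma called 179 of the 481 miRNAs lower and 32 higher in SUN1L than in KDEL cells on the soft gel. On the stiff gel against the soft gel in SUN1L cells it called 322 higher and 14 lower. Among 10 guide arms of the family 7 were lower in SUN1L than in KDEL cells on the soft gel with 17 libraries, led by mmu-let-7b-5p (-1.81 ± 0.31) and mmu-let-7d-5p (-1.49 ± 0.32), and 0 were higher. The median of the guides was -1.11, that of the members -1.23. On the stiff gel against the soft gel in SUN1L cells 7 of the 10 guides were higher, led by mmu-let-7d-5p (2.74 ± 0.32) and mmu-let-7b-5p (2.58 ± 0.31), the guides of the 2 hairpins called by ratio. With 18 libraries 4 were still called there, against 4.16% of all miRNAs.

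Of the list of other passenger arms of the family 3 of 4 could be tested, among them mmu-let-7j, whose name gives no arm. mmu-let-7i-3p alone was lower in SUN1L cells on the soft gel (-1.38 ± 0.40), and it, mmu-let-7j and mmu-miR-98-3p were higher on the stiff gel in SUN1L cells, in the fits of 17 libraries. Of 13 arms of hairpins next to let-7, 3 were lower (mmu-miR-98-5p, mmu-miR-125b-5p and mmu-miR-125a-5p) and 2 higher (mmu-miR-100-5p for one) in SUN1L cells on the soft gel, and on the stiff gel against the soft gel in SUN1L cells 7 were higher and 1, mmu-miR-100-5p, was lower. Of 11 passenger arms of other abundant fibroblast miRNAs 2 were lower in the first of these comparisons, mmu-miR-143-5p (-1.47 ± 0.36) and mmu-miR-21a-3p (-1.31 ± 0.47), and 10 were higher in the second. In KDEL cells mmu-let-7d-5p (1.29 ± 0.32) and mmu-miR-125b-5p (1.15 ± 0.32) alone of these lists were called by rigidity with 17 libraries, where 7.07% of all miRNAs were.

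By the pattern of its values over the 17 libraries, let-7d-3p was most like mmu-miR-296-5p (Spearman correlation 0.975), its own guide mmu-let-7d-5p (0.968) and mmu-miR-103-3p (0.963). let-7a-1-3p was most like mmu-miR-26a-2-3p (0.975), also a passenger arm, mmu-miR-503-5p (0.968) and mmu-miR-872-5p (0.966), and let-7c-2-3p had the same 3 nearest names. These correlations are a description over libraries that share group, scaling and depth. Among the members the profiles of let-7b-3p and let-7d-3p were close (0.917 over 17 libraries), while let-7a-2-3p was loosely tied to let-7d-3p (0.343) and let-7f-1-3p (0.174).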

How the data were processed

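Small RNA libraries of 18 samples were sequenced by the authors, who call the replicates biological. Per the study's methods, reads were checked with FastQC, trimmed of adapters, dropped under 15 nucleotides, filtered on quality in AvadisNGS and counted on miRBase release 20, with an active-region count that takes only reads starting at the annotated 5′ end. Reads starting elsewhere on an arm may thus be missed. How the values were normalized is not given for miRNAs in the sources used here. The deposited values are a normalized signal per miRNA and library, raised to a floor of 1. For 93.4% to 98.3% of values above the floor this signal was a whole multiple of 1 step per library (tolerance 0.01 read), from which reads were worked out for description only. The labels name mm9, but positions in the table were those of GRCm38, so that build is given. Entries with the same name (77 names, 212 of 2035 entries) were reduced to the copy of highest mean, leaving 1900.

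limma (version 3.58.1 in R 4.3.3) with an intensity trend was fitted to log2(value + 1) of 481 miRNAs with at least 10 in at least 3 libraries, with 1 mean per group, and to log2(3p value + 1) minus log2(5p value + 1) of 167 of 806 hairpins with both arms, where 5p copies were taken from the same hairpin. p-values were adjusted by Benjamini-Hochberg over all features tested, and calls are at an adjusted p under 0.05. Changes on this scale understate those of low miRNAs. All 9 members are named, and of the 4 lists (let-7 guides, other passengers of the family, cluster neighbours, passengers of abundant fibroblast miRNAs) counts and the 2 to 4 members of lowest p. The members, lists and the fit without blebbistatin replicate 3 were chosen with earlier results of these data known. The fits were tested on simulated data. Alternatives were other scalings, filters, pseudocounts, weights, library subsets and a term for the run of library numbers.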

Additional observations from a re-analysis of the deposited data

How the results depend on the processing

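No paired analysis was possible because the labels carry no replicate numbers, and the nearest to a block was a term for the runs of library numbers, in the 12 untreated libraries. The count tests planned (edgeR, DESeq2) were not run, since the deposited values are normalized with a floor. For levels of members, 0 of 9 were called in every comparison of the fit of 18 libraries used above, with equal weights. Leaving out 1 library, or 1 more beside blebbistatin replicate 3, gave 0 to 5 called in SUN1L against KDEL cells on the soft gel, 0 to 7 for stiff against soft gel in SUN1L cells, 0 to 3 in KDEL cells and 0 to 1 for the interaction. For arm ratios the same ranges were 0 to 3 for SUN1L against KDEL cells on the soft gel, 0 to 4 (2 with 18 libraries) for stiff against soft gel in SUN1L cells, 0 to 1 in KDEL cells and 0 to 2 for the interaction. Array weights called by level 4 members for SUN1L against KDEL cells on the soft gel, 2 on the stiff gel, 5 for rigidity in KDEL and 6 in SUN1L cells, 1 for the interaction, 1 for blebbistatin and 2 for Y27, and by ratio 2, 0, 2, 6, 1, 1 and 0 in that order. With blebbistatin replicate 3 also left out array weights gave by ratio 2 for SUN1L against KDEL on the soft gel, 2 and 6 for rigidity in KDEL and SUN1L cells and 1 for the interaction. The 12 untreated libraries alone called by level 4 members on the soft gel and 6 for rigidity in SUN1L cells, and by ratio 3 on the soft gel. A further term for the run of numbers in the libraries' labels gave, for these 12 libraries, calls by level of 5 and 7 members, and by ratio 3 on the soft gel, 1 and 5 for rigidity in KDEL and SUN1L cells and 2 for the interaction (let-7b and let-7d). Fits of only the groups compared called by level 2 members for rigidity in KDEL and 4 in SUN1L cells, and by ratio 1 on the soft gel and 1 for rigidity in KDEL cells. With blebbistatin replicate 3 left out, median-of-ratios scaling called 2 on the soft gel and 3 for rigidity in SUN1L cells, quantile scaling 2 and 3, and counting the identical 3p arm once 4 and 6. A pseudocount of 4 then gave by ratio 3 on the soft gel, 1 and 4 for rigidity in KDEL and SUN1L cells, and a filter of 50 gave 3 on the soft gel and 1 for rigidity in KDEL cells. Over all tested miRNAs, median-of-ratios scaling of the 17 libraries called 89 higher and 100 lower on the soft gel. For rigidity in SUN1L cells it called 129 higher and 109 lower. Quantile scaling of the 17 called 78 higher and 101 lower on the soft gel, and 133 and 122 for rigidity in SUN1L cells. For the other alternatives of this section the calls over all miRNAs or hairpins are not given here. The direction turned with a call for let-7d-3p on the soft gel (0.52 with median-of-ratios and 0.62 with quantile scaling) and, for rigidity in SUN1L cells, for let-7d-3p (-0.51 and -0.54), let-7f-1-3p (-1.02 and -0.91) and let-7b-3p (-0.88 with quantile scaling). The median of all miRNAs was moved by these scalings from -0.68 to 0.01 and -0.10 on the soft gel, and the cause of that shift was not tested. Of 2799 ratio values of single members under the alternatives none was reversed with a call. The 2 scalings under which levels turned were not among the ratio fits. Without a call the sign of a ratio could turn, as for the interaction of let-7e in 14 of 45 alternatives. Combinations with blebbistatin replicate 3 left out, other than median-of-ratios scaling, were chosen after seeing the data. Depth limits the passengers of let-7f-2, let-7c-1, let-7f-1 and let-7a-2, which rested on as few as 3, 17, 25 and 32 reads in the 17 libraries.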
